A study of Mus musculus with 16 samples.

Results

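The mitochondrial genome transcripts were the 37 genes whose names begin with mt- among the 54532 genes of the count table. They comprised 13 protein-coding genes, 2 rRNA genes and 22 tRNA genes, 28 of them on the plus strand and 9 on the minus strand. The minus-strand genes were mt-Nd6 and 8 tRNA genes. A gene was tested where 2 or more of the 8 libraries compared reached 10 counts, which 33 members did. The other 4 were the tRNA genes mt-Tf, which had 0 counts in all 16 libraries, mt-Ts1, mt-Td and mt-Tk.

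The mitochondrial genome is a small circle that is copied into long RNAs from both of its strands. The tRNAs lie between most of the other genes, and cutting them out releases the mRNAs and rRNAs. The mRNAs code for subunits of respiratory complexes I, III, IV and V, whose other subunits come from nuclear genes, and the rRNAs and tRNAs serve mitochondrial translation. Absorptive enterocytes of the jejunum rely on mitochondria for the energy of nutrient transport.

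Bulk RNA sequencing was performed on differentiated jejunal enteroids, epithelial cultures grown from intestinal crypts, after loss of the motor protein MYO5B. There were 4 groups of 4 cultures, which the study describes as coming from 4 mice per group. By the design text, control and induced knockout (iKO) enteroids came from adult Vil1-CreERT2; Myo5b-flox/flox mice, and G519R enteroids came from Vil1-CreERT2; Myo5b-flox/G519R mice, which keep a mutant Myo5b allele. Cre recombinase driven by the villin promoter acts in epithelial cells, and it was induced in culture by 1 µM 4-OH-tamoxifen for 24 h. The sample labels give no genotype for control, and the study elsewhere calls these animals healthy littermates, so the genotype of the controls is not settled here. The sample records name this drug for the iKO and G519R enteroids only, and the design text gives vehicle (EtOH) as its alternative. In comparisons with control, MYO5B loss and an effect of the drug itself therefore cannot be told apart. The fourth group was iKO enteroids given 100 nM Compound-1, an agonist of the lysophosphatidic acid receptor LPAR5, for 2 days of differentiation. The enteroids of all groups were differentiated, and the vehicle of Compound-1 was PBS.

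The libraries held 27804968 to 40101729 counts. Control 1 stood apart from the other 3 controls: its TMM scaling factor was 1.00, against 0.845 to 0.879, and it had the lowest level among the controls in 30 of the 33 tested members. Its log2 level, as a deviation from the other libraries, also had a different relation to gene length across genes (Spearman rho 0.11, against -0.32 to -0.31 in the other controls and -0.02 to 0.25 in the 12 remaining libraries). The targeted gene Myo5b was at 189 ± 29.9 CPM (counts scaled to the total of the library, SD, n = 4) in control, 128 ± 31.0 in iKO, 150 ± 17.0 in G519R and 111 ± 26.8 in Compound-1-treated iKO enteroids. Against control, edgeR gave it a log2 fold change of -0.55 in iKO (adjusted p = 0.0503), -0.33 in G519R (adjusted p = 0.109) and -0.77 with Compound-1 (adjusted p = 0.0146). Of 6 fibroblast markers 3 were at 0 in all libraries and their sum stayed at or below 0.956 CPM, the 3 endothelial markers summed to at most 1.35 CPM and the 5 immune markers to at most 3.19 CPM. The 8 enterocyte markers summed to 3028 to 15473 CPM.

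A stretch of mitochondrial sequence has a nearly identical copy in the nuclear genome, and reads from it fit both places. In GRCm38, MT:6390-11042 (4653 bases) matched chromosome 1 on the minus strand through 7 annotated genes. These genes span chr1:24611535-24616197 and aligned over 4140 bases with 2 mismatches, and the bases between the aligned parts were not compared. Lying wholly inside the mitochondrial stretch were mt-Ts1, mt-Td, mt-Co2, mt-Tk, mt-Atp8, mt-Atp6, mt-Co3, mt-Tg, mt-Nd3, mt-Tr and mt-Nd4l, and mt-Co1 and mt-Nd4 lay partly inside. The sequences below, from GENCODE M21 transcripts, show both mismatches in capitals and then a 60-base stretch that mt-Co2 and its copy Gm28661 share, with the start codon in capitals. In mt-Co1, counted from 1 at the 5' end of the gene, the mismatch was A1066T (MT:6390-6423, plus strand, and chr1:24616155-24616188, minus strand). In mt-Nd3 it was T3C (MT:9459-9491, plus strand, and chr1:24613087-24613119, minus strand). The shared stretch was MT:7013-7072 on the plus strand.
mt-Co1: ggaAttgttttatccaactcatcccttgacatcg
Gm29216: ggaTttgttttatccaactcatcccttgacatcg
mt-Nd3: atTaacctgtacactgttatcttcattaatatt
Gm28438: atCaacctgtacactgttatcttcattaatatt
mt-Co2 and Gm28661: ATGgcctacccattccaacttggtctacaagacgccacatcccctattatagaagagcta

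The mitochondrial share of all counts was lower in the MYO5B-deficient enteroids than in most controls. It was 6.41, 9.07, 10.4 and 9.55% in controls 1 to 4, and 4.16, 4.53, 6.63 and 5.67% in iKO cultures 1 to 4. It was 4.20, 4.61, 5.37 and 4.61% in G519R and 6.11, 4.58, 3.79 and 4.86% in Compound-1-treated iKO cultures. Control 1 lay inside the iKO range and the other 3 controls above it, whereas all 4 controls lay above every G519R and every Compound-1-treated culture. The means were 8.86 ± 1.72% in control, 5.25 ± 1.13% in iKO, 4.69 ± 0.487% in G519R and 4.83 ± 0.963% with Compound-1 (SD, n = 4 each). Two-sided exact permutation tests gave p = 0.0571 for iKO and p = 0.0286 for G519R and for Compound-1-treated iKO against control, the last value being the smallest that 4 against 4 allows. After adjustment over the 30 tests of 6 such values in 5 comparisons, each of these was 0.429. A test at the smallest p cannot alone pass this adjustment. Without control 1 the difference between iKO and control widened from -3.61 to -4.42 percentage points. In bulk RNA, fewer cells of a type with much mitochondrial RNA and less mitochondrial RNA per cell cannot be told apart.

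**Figure D1:**
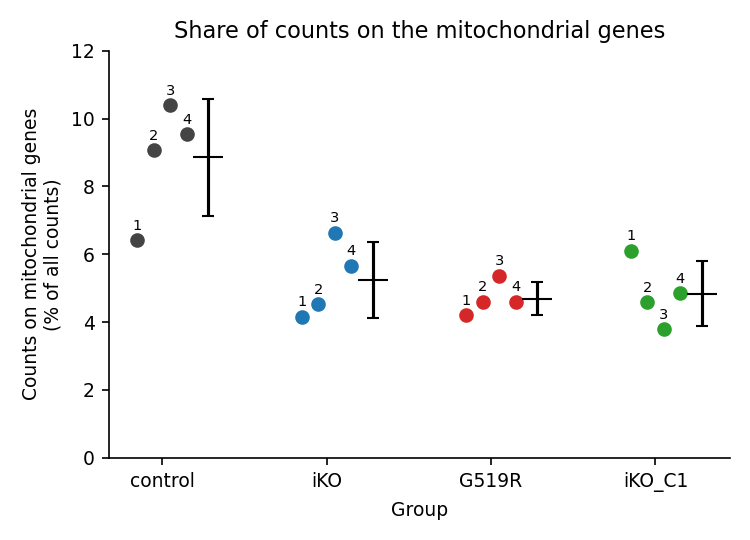
Percent of all counts on the 37 mitochondrial genes (y axis) in each library by group (x axis), with replicate numbers beside the points, and the mean and SD as black marks (iKO_C1, Compound-1-treated iKO). Control 1, at 6.41%, lies among the highest MYO5B-deficient libraries, and the other 3 controls lie at 9.07 to 10.4%.

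Cell type markers also moved between these groups. The summed level of the 4 stem cell markers was 2167 to 6152 CPM in control, 738 to 1799 CPM in iKO, 1032 to 2317 CPM in G519R and 405 to 1595 CPM in Compound-1-treated enteroids, and the 4 proliferation markers summed to 1285 to 1662 CPM in control, 934 to 1118 CPM in iKO, 1087 to 1370 CPM in G519R and 587 to 1198 CPM with Compound-1, with G519R overlapping control. Of the 4 stem cell markers, edgeR called 1 lower in each of iKO, G519R and Compound-1-treated iKO against control (all genes, 13.8, 13.7 and 13.7%). Their log2 fold changes spanned -2.26 to 0.16, -1.63 to 0.30 and -2.48 to -0.24, with medians of -0.18, 0.12 and -0.30. In iKO and G519R the fall in the stem cell sum was therefore not shared by all 4 markers. Of the 4 proliferation markers, 3, 2 and 2 were lower and 0 higher in iKO, G519R and Compound-1-treated iKO. The enterocyte sum overlapped between control (3028 to 15473 CPM) and iKO (6104 to 11800 CPM). Of the 8 enterocyte markers, 0, 1 and 3 were lower and 3, 2 and 3 higher (all genes higher, 13.5, 13.1 and 15.7%). Their log2 fold changes in iKO spanned -1.56 to 1.58, so the sum does not stand for each marker. The part of cell composition in the mitochondrial results was not tested.

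Of the 33 tested members, 19 were lower and 0 were higher in iKO than in control by edgeR's quasi-likelihood test with Benjamini-Hochberg adjustment over all 17951 genes tested, where 13.8% of all tested genes were called lower. In G519R 21 were lower and 0 higher, against 13.7% called lower among all genes. In Compound-1-treated iKO 23 were lower and 0 higher, against 13.7% called lower. The median log2 fold change of the members was -0.93 in iKO, -1.14 in G519R and -1.23 with Compound-1, where that of all genes was -0.01, -0.05 and -0.05. The 3 comparisons share the 4 control libraries. At an unadjusted p under 0.05, 22, 23 and 29 members passed, against 40.4, 39.4 and 41.9% of all genes, and DESeq2 called 22, 22 and 27 members. The 2 groups did not overlap in 9 members for iKO (13.8% of all genes were lower without overlap), in 14 for G519R (13.8%) and in 17 for Compound-1 (13.6%), with the controls higher in each of these.

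The number of calls depended on single libraries, among all genes as well as among the members. For iKO it was 24 without control 1, 12 without control 2, 11 without control 3, 12 without control 4 and 12 without iKO 1, and for Compound-1 it was 31 without control 1 and 15 without control 3. Leaving out any library left 16 to 26 calls for G519R. Over all genes tested for iKO, 3707 of 17783 were lower without control 1, against 2483 of 17951 with all libraries. Without control 2, 3 or 4 it was 1651 of 17779, 1465 of 17760 and 1464 of 17819. Without iKO 1 it was 1660 of 17779. For Compound-1, 3403 of 17718 were lower without control 1 and 1247 of 17688 without control 3. For G519R, 1410 to 3902 genes were lower with any library left out. The trend of level on gene length, once removed, left 9 calls for iKO, and limma on log2(FPKM + 1), FPKM being fragments scaled to gene length and library total, left 7 for iKO and 11 for G519R. Over all genes these fits called 2877 and 2225 of 17951 lower in iKO, and limma called 2082 of 17829 lower in G519R.

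**Figure D2:**
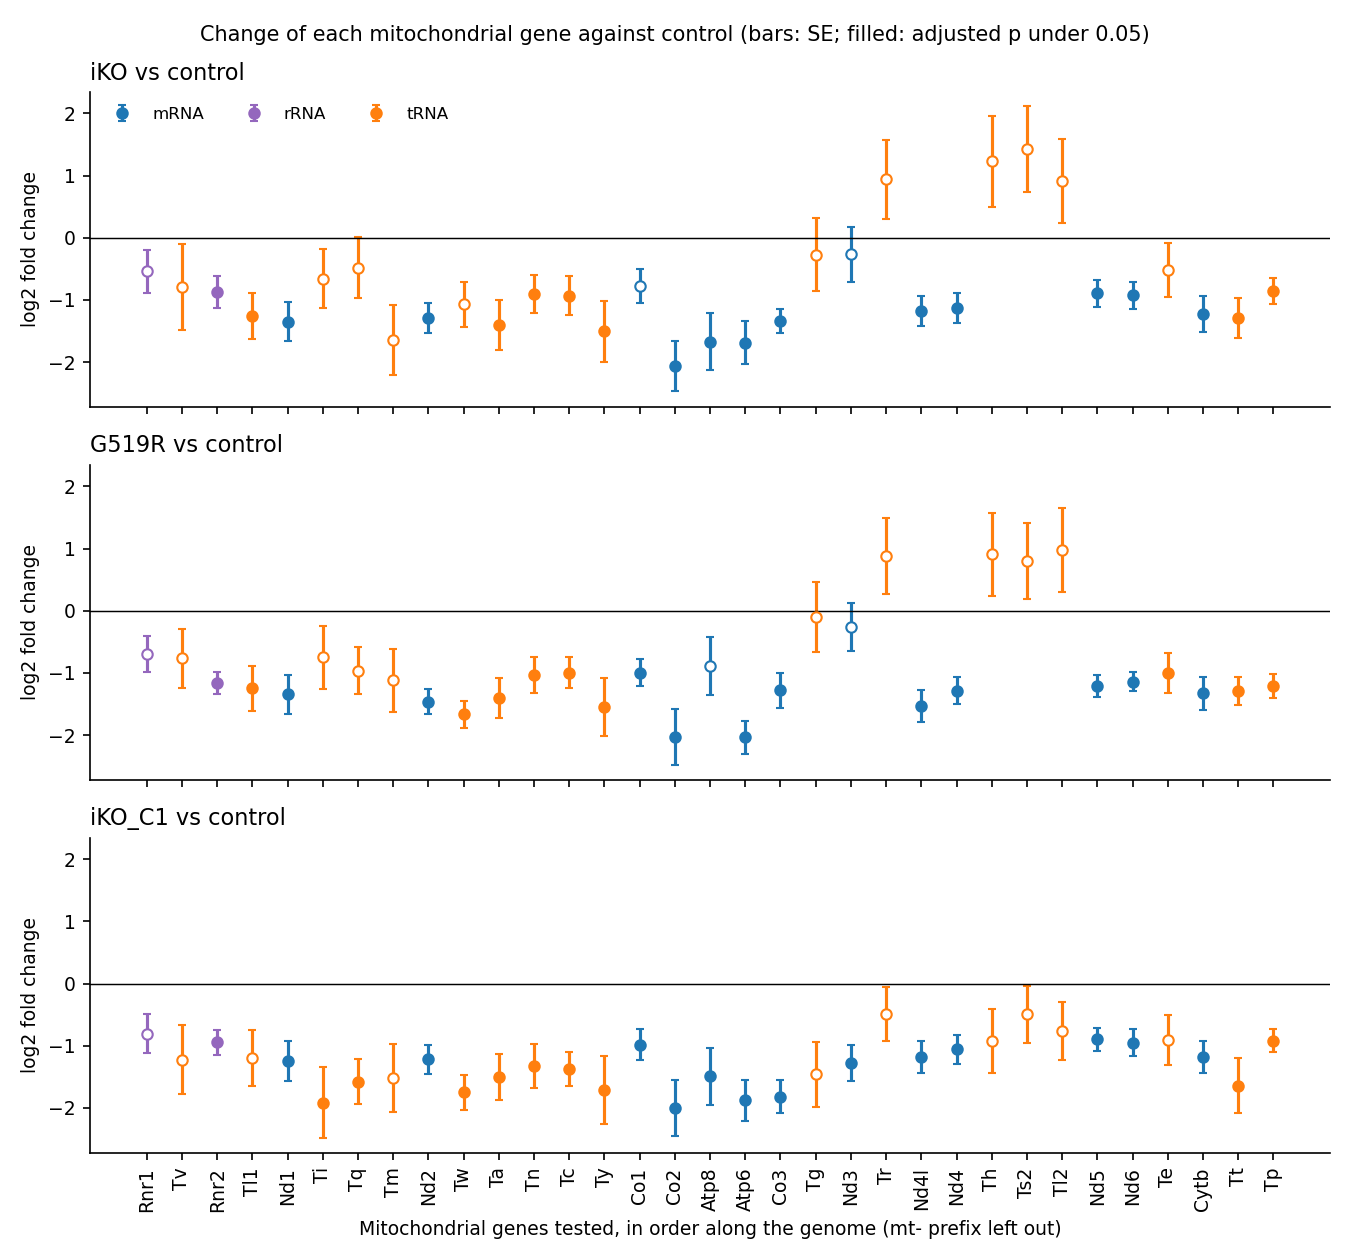
Log2 fold change against control (y axis, bars SE) of the 33 tested mitochondrial genes in their order along the genome (x axis), in iKO, G519R and Compound-1-treated iKO (iKO_C1) enteroids, coloured by RNA class and filled where edgeR's adjusted p was under 0.05. Points lie below 0 apart from mt-Tr, mt-Th, mt-Ts2 and mt-Tl2 in iKO and G519R, none of which is filled.

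The mRNAs carried 13 of the tested members, and 11 of the 13 were lower in iKO, 11 in G519R and 13 in Compound-1-treated iKO, with median log2 fold changes of -1.22, -1.28 and -1.22. The 7 mRNAs of complex I, the NADH dehydrogenase, were mt-Nd1, mt-Nd2, mt-Nd3, mt-Nd4, mt-Nd4l, mt-Nd5 and mt-Nd6. All except mt-Nd3 were lower in iKO and in G519R. mt-Nd2 was at 5854, 8231, 9753 and 9121 CPM in controls 1 to 4, 2722, 2439, 4110 and 4167 CPM in iKO and 2518, 2682, 3262 and 3489 CPM in G519R. No iKO or G519R culture reached the lowest control, and the fitted log2 change was -1.29 (SE 0.24, adjusted p = 0.00449 by edgeR) in iKO and -1.46 (SE 0.20, adjusted p = 0.00222 by edgeR) in G519R. The changes in iKO and G519R were -1.35 and -1.35 for mt-Nd1, -1.13 and -1.28 for mt-Nd4, -1.18 and -1.53 for mt-Nd4l, and -0.89 and -1.21 for mt-Nd5. Of these 4, mt-Nd1 overlapped between the groups, since control 1 (7323 CPM) lay below iKO 4 (7636 CPM) and G519R 4 (7955 CPM). By limma on log2(FPKM + 1) the adjusted p was 0.255 and 0.324 for mt-Nd1 and 0.0877 and 0.0693 for mt-Nd2.

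mt-Nd6 is the mRNA of the minus strand, and it was lower in both models. It was at 2308, 1709, 2081 and 1997 CPM in controls 1 to 4, 754, 882, 1255 and 1348 CPM in iKO, and 753, 957, 988 and 964 CPM in G519R. The groups did not overlap, and the fitted log2 change was -0.93 (SE 0.21, adjusted p = 0.00982 by edgeR) in iKO and -1.14 (SE 0.15, adjusted p = 0.00204 by edgeR) in G519R. In iKO the call was lost with the length trend removed (log2 fold change -0.50, adjusted p = 0.19). The log2 ratio of mt-Nd6 to the sum of the 12 plus-strand mRNAs was -5.51 ± 0.557 in control, -5.48 ± 0.184 in iKO, -5.51 ± 0.102 in G519R and -5.44 ± 0.142 with Compound-1 (SD, n = 4), and exact permutation tests against control gave p = 0.971, 1 and 0.857. These tests rested on control 1, which had -4.68. The other 3 controls, at -5.84 to -5.73, lay below all 12 MYO5B-deficient cultures, which had -5.64 to -5.24, and without control 1 the difference from control was 0.31 in iKO, 0.28 in G519R and 0.36 with Compound-1. With 3 controls the smallest p an exact test allows is 0.0571. The end of mt-Nd5 overlaps mt-Nd6 on the opposite strand, and the strand setting of the counting was not given in the sources used here, so reads of a minus-strand gene cannot be told apart from antisense reads of the plus-strand precursor.

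mt-Cytb, the mitochondrially encoded subunit of complex III (ENSMUSG00000064370, MT:14145-15288, plus strand), lies outside the copied stretch. Its level was 7507, 14307, 16049 and 16791 CPM in controls 1 to 4, 4958, 4579, 5702 and 8094 CPM in iKO and 4517, 4757, 6140 and 6319 CPM in G519R. Only iKO 4 exceeded control 1, and all G519R cultures lay below the controls. The fitted log2 change was -1.22 (SE 0.29, adjusted p = 0.0109 by edgeR) in iKO, -1.33 (SE 0.26, adjusted p = 0.00646 by edgeR) in G519R and -1.18 (SE 0.26, adjusted p = 0.01 by edgeR) with Compound-1. By limma on log2(FPKM + 1) the adjusted p was 0.193 in iKO and 0.202 in G519R.

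The 3 mRNAs of complex IV, cytochrome c oxidase, were mt-Co1, mt-Co2 and mt-Co3. mt-Co1 (ENSMUSG00000064351, MT:5328-6872, plus strand), the catalytic subunit and the most abundant member, was at 28224, 42690, 51291 and 44352 CPM in controls 1 to 4. It was at 18130, 20568, 35991 and 22602 CPM in iKO and 19445, 21532, 24205 and 18252 CPM in G519R. The high iKO 3 culture lay above control 1, and every G519R culture lay below the controls. The fitted log2 change was -0.77 (SE 0.27, adjusted p = 0.0575 by edgeR) in iKO, which did not pass, and -0.997 (SE 0.22, adjusted p = 0.00995 by edgeR) in G519R. For mt-Co1 in iKO, adjusted p was 0.00578 without control 1 and 0.0243 without iKO 3 by edgeR, and 0.0135 by DESeq2. By limma on log2(FPKM + 1) it was 0.575 for mt-Co1 in G519R. mt-Co2 changed by -2.07 in iKO and -2.03 in G519R (edgeR adjusted p = 0.00502 and 0.0104), and mt-Co3 by -1.34 and -1.28 (edgeR adjusted p = 0.00182 and 0.00947).

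For complex V, the ATP synthase, mt-Atp6 changed by -1.68 in iKO (SE 0.35, adjusted p = 0.00631 by edgeR) and by -2.04 in G519R (SE 0.26, adjusted p = 0.00196 by edgeR). mt-Atp8, whose reading frame overlaps that of mt-Atp6, was at 0.847, 3.49, 3.43 and 3.89 CPM in controls 1 to 4, 0.719, 1.35, 0.708 and 0.841 CPM in iKO and 1.76, 2.25, 1.496 and 0.784 CPM in G519R. The fitted log2 change was -1.67 (edgeR adjusted p = 0.0211) in iKO and -0.89 (edgeR adjusted p = 0.187) in G519R. Without control 1 it passed in G519R (edgeR adjusted p = 0.0124), and in iKO it did not pass without any 1 of control 2, 3 or 4 or iKO 1 or 3 (edgeR adjusted p = 0.0555, 0.0588, 0.0646, 0.061 and 0.0561).

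The 2 rRNAs are the RNAs of the small (mt-Rnr1) and large (mt-Rnr2) mitochondrial ribosomal subunits. mt-Rnr2 was at 2063, 2577, 3390 and 2630 CPM in controls 1 to 4, 928, 1187, 2091 and 1583 CPM in iKO and 1026, 1090, 1328 and 1311 CPM in G519R. It was lower in both models, by -0.88 in iKO (SE 0.26, adjusted p = 0.0295 by edgeR) and -1.16 in G519R (SE 0.18, adjusted p = 0.00305 by edgeR). In iKO mt-Rnr2 did not pass without any 1 of control 2, 3 or 4 or iKO 1, 2 or 4 (edgeR adjusted p = 0.0597, 0.0941, 0.0642, 0.0769, 0.0913 and 0.0501). mt-Rnr1 was at 358, 832, 1153 and 817 CPM in control and 398, 569, 805 and 390 CPM in iKO. Its log2 fold change of -0.54 in iKO (edgeR adjusted p = 0.264) and -0.69 in G519R (edgeR adjusted p = 0.101) did not pass, and without control 1 mt-Rnr1 passed in both (edgeR adjusted p = 0.025 and 0.000549).

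None of the tests on the balance between the RNA classes passed, and they could not settle whether the balance changed. The smallest exact p of 4 against 4 is 0.0286, and 1 test at that p cannot alone pass adjustment over 30 tests. The RNA was polyadenylated RNA, so the shares and ratios are of captured RNA. How well the selection captured each RNA, the rRNAs and mt-Nd6 included, was not tested. The rRNAs made 3.46 ± 0.330% of mitochondrial counts in control, 3.91 ± 0.523% in iKO, 3.77 ± 0.108% in G519R and 3.90 ± 0.607% with Compound-1 (SD, n = 4). The log2 ratio of mt-Rnr2 to mt-Rnr1 was 1.85 ± 0.454 in control, 1.42 ± 0.421 in iKO and 1.28 ± 0.267 in G519R, with exact permutation p = 0.229 and 0.0571 and an adjusted p of 0.686 and 0.429. The tRNAs made 0.294 ± 0.0204% of mitochondrial counts in control, 0.361 ± 0.0828% in iKO, 0.351 ± 0.0649% in G519R and 0.284 ± 0.0501% with Compound-1. Within the mitochondrial counts, mt-Co1 took 41.7 ± 1.83% in control and 48.0 ± 5.83% in iKO, and mt-Nd2 took 8.29 ± 0.567% in control and 6.68 ± 0.755% in iKO.

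The tRNA counts were small. The RNA was selected on poly-T beads and the library fragments were chosen to be longer than a tRNA gene, which spans 59 to 75 bases, so a count on a tRNA gene may come from an uncut precursor, and mature tRNA cannot be told apart from it. Of the 18 tRNA genes tested, 7 were lower in iKO, 9 in G519R and 9 with Compound-1. On the plus strand 2, 3 and 3 of 11 were lower, and on the minus strand 5, 6 and 6 of 7 (all genes, 13.8, 13.7 and 13.7%). The plus-strand genes include mt-Tg, mt-Tr, mt-Th, mt-Ts2 and mt-Tl2, described below, none of which was called against control. The limit on reads of minus-strand genes given for mt-Nd6 holds here too. The median log2 fold change of the tested tRNA genes was -0.66, -0.75 and -1.23 on the plus strand and -0.90, -1.04 and -1.37 on the minus strand. The difference between the strands was not tested.

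The most abundant tRNA gene was mt-Tp, for proline, on the minus strand at the end of the gene series (MT:15356-15422). It is printed with its anticodon in capitals.
mt-Tp: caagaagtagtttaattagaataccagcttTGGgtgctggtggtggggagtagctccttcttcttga
It was at 76.1, 93.0, 130 and 107 CPM in controls 1 to 4, 43.5, 48.1, 78.5 and 54.1 CPM in iKO and 43.0, 54.0, 46.0 and 32.7 CPM in G519R. The fitted log2 change was -0.86 (SE 0.22, adjusted p = 0.0151 by edgeR) in iKO and -1.21 (SE 0.19, adjusted p = 0.00321 by edgeR) in G519R. mt-Tp in iKO did not pass without control 3 (edgeR adjusted p = 0.0514), without iKO 2 (edgeR adjusted p = 0.0542) or with the length trend removed (adjusted p = 0.263).

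A row of 4 minus-strand tRNA genes between mt-Nd2 and mt-Co1 was lower in both models. They were mt-Ta for alanine (log2 fold change -1.40 in iKO and -1.40 in G519R), mt-Tn for asparagine (-0.90 and -1.04), mt-Tc for cysteine (-0.93 and -0.996) and mt-Ty for tyrosine (-1.51 and -1.54). On the plus strand mt-Tl1, for leucine, changed by -1.25 and -1.25, and mt-Tt, for threonine, by -1.30 and -1.29. mt-Tt was at 3.26, 2.33, 3.24 and 3.11 CPM in controls 1 to 4 and 0.719, 0.899, 1.45 and 1.77 CPM in iKO, and it was the tRNA gene without overlap in that comparison. With the length trend removed, mt-Ta, mt-Tn, mt-Tc, mt-Ty, mt-Tl1 and mt-Tt did not pass in iKO, at adjusted p of 0.115, 0.311, 0.325, 0.126, 0.118 and 0.115. In iKO, mt-Ta, mt-Tn, mt-Tc, mt-Ty and mt-Tl1 did not pass either without any 1 of control 2, 3 or 4 or iKO 1 or 2 (adjusted p of 0.055 to 0.139 by edgeR). In G519R, mt-Tn, mt-Ty and mt-Tl1 did not pass without any 1 of control 2, 3 or 4 or G519R 1, 2 or 3, and mt-Tc did not without control 3 or G519R 3.

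A set of 6 plus-strand genes, 5 tRNA genes and the mRNA mt-Nd3, moved apart from the rest. They lie in 2 runs, with mt-Nd4l and mt-Nd4, both called lower, between them. The first run was mt-Tg (glycine), mt-Nd3 and mt-Tr (arginine), the second was mt-Th (histidine), mt-Ts2 (serine) and mt-Tl2 (leucine), and they were singled out after their values had been seen. The tRNA sequences of this set are shown on the plus strand with the anticodon in capitals, since the 3 that follow mt-Nd4 (MT:11546-11741) adjoin each other and have no copy on chromosome 1.
mt-Tg: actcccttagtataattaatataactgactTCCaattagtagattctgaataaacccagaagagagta
mt-Tr: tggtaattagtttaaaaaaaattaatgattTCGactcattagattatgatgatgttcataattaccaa
mt-Th: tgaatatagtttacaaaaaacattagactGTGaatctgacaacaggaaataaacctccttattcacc
mt-Ts2: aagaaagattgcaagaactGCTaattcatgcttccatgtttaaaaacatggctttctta
mt-Tl2: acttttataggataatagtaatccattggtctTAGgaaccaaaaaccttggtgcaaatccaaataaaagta

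mt-Th was at 1.07, 7.95, 4.74 and 3.78 CPM in controls 1 to 4, 4.19, 18.3, 17.0 and 1.53 CPM in iKO, 5.58, 15.8, 9.90 and 1.51 CPM in G519R and 2.85, 1.85, 3.17 and 1.34 CPM in Compound-1-treated iKO. Cultures 2 and 3 of iKO and of G519R were above every other library in mt-Th, while culture 4 of each model was among the lowest. This held for 4 of the 6 genes. mt-Nd3 was at 23.8, 58.4, 57.3 and 62.4 CPM in control, 20.9, 73.6, 53.9 and 18.6 CPM in iKO, 29.8, 69.9, 47.8 and 20.997 CPM in G519R and 27.5, 18.5, 20.3 and 17.1 CPM with Compound-1. Its control values lay inside the range of both models.

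None of the 6 genes passed in iKO or G519R against control. The log2 fold change in iKO and G519R was 0.94 and 0.88 for mt-Tr, 1.23 and 0.90 for mt-Th, 1.42 and 0.80 for mt-Ts2, 0.92 and 0.98 for mt-Tl2, -0.27 and -0.10 for mt-Tg and -0.27 and -0.26 for mt-Nd3. Without iKO 4, mt-Ts2 was called higher in iKO (log2 fold change 1.79, edgeR adjusted p = 0.0431). With the length trend removed, the sign turned for mt-Nd3 (0.27 and 0.24) and for mt-Tg (0.25 and 0.30). With Compound-1 against control mt-Nd3 was lower (log2 fold change -1.28, edgeR adjusted p = 0.0101).

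Over the 16 libraries, the log2 CPM of the 6 genes correlated with each other at Pearson's r of 0.67 to 0.98. The r between these 6 and mt-Nd1, mt-Nd4, mt-Nd5, mt-Nd6 and mt-Cytb was -0.24 to 0.39, and among those 5 mRNAs it was 0.76 to 0.98. The points of each correlation share the library and its depth, the set was picked from these values, and the r are given as a description.

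**Figure D3:**
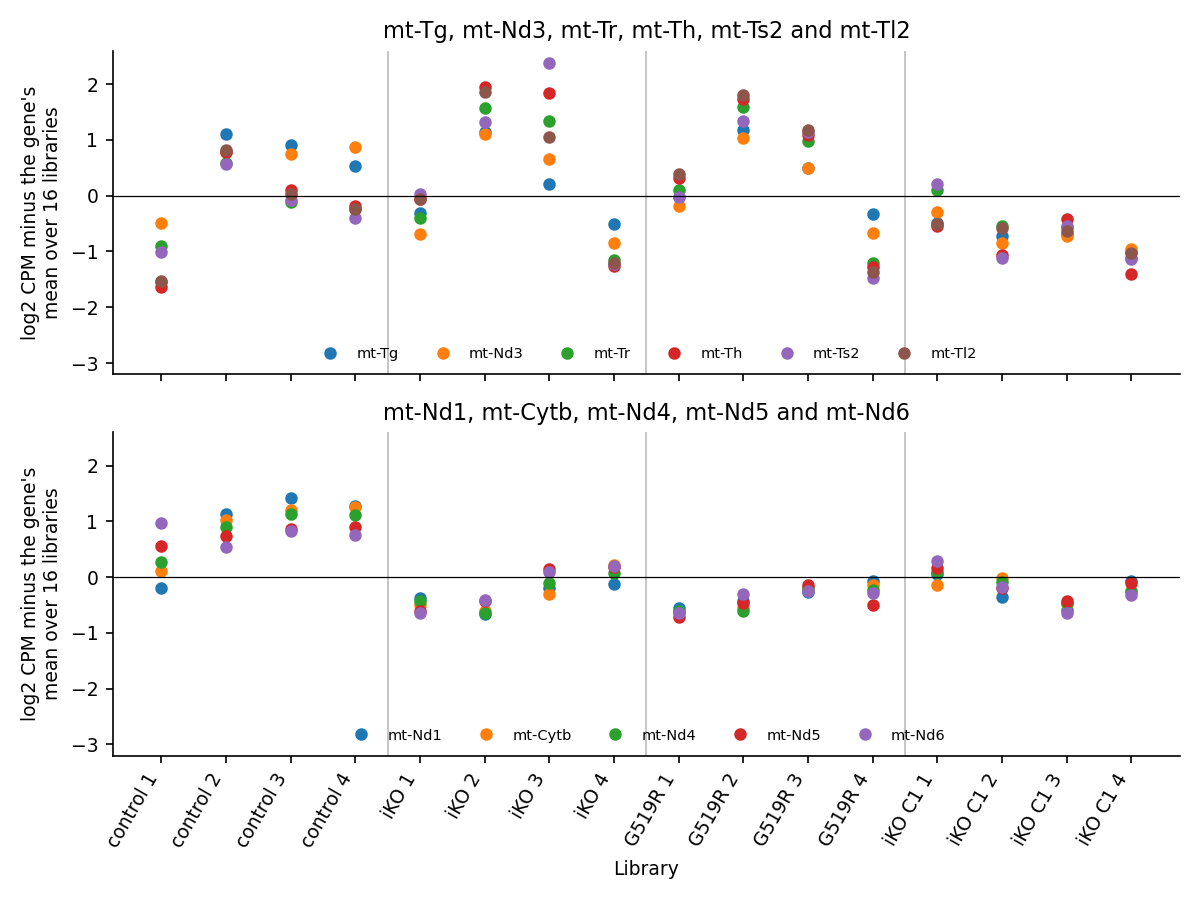
Log2 CPM of each gene minus its mean over the 16 libraries (y axis) by library (x axis), for the 6 genes that moved apart (upper) and 5 mRNAs (lower), with lines between the groups and iKO C1 for Compound-1-treated iKO. In the upper panel, cultures 2 and 3 of iKO and G519R lie above every other library in 4 of the 6 genes. The 4 Compound-1-treated cultures lie below iKO 2 and 3 in all 6 genes, whereas iKO 4 lies inside or below their range in each gene. In the lower panel controls 2 to 4 lie highest for most genes.

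Compound-1 was set against iKO to ask whether LPAR5 activation moved the transcripts. By edgeR 0 members and 0% of all genes were called in Compound-1-treated iKO against iKO, at an unadjusted p under 0.05 there were 9 members and 7.51% of all genes (1355), and DESeq2 called 0 members and 49 genes lower and 51 higher. Members without overlap between these groups numbered 0, where 1.27% of all genes were lower and 1.59% higher without overlap. The median log2 fold change of the members was -0.24, against 0.00 for all genes. mt-Co1 changed by -0.24 (SE 0.25) and mt-Cytb by 0.02 (SE 0.20). The 9 members were the 6 genes above together with mt-Ti, mt-Tq and mt-Co3, all lower with Compound-1. Those 6 were singled out from values that include these iKO cultures, so their changes are a description and no separate evidence. In mt-Th, iKO 2 and 3 were at 18.3 and 17.0 CPM, whereas iKO 4, at 1.53 CPM, lay within the 1.34 to 3.17 CPM of Compound-1. The fitted log2 change with Compound-1 against iKO was -2.19 for mt-Th (SE 0.65, adjusted p = 0.532 by edgeR), -1.95 for mt-Ts2, -1.72 for mt-Tl2, -1.46 for mt-Tr, -1.22 for mt-Tg and -1.04 for mt-Nd3 (SE 0.40, adjusted p = 0.595 by edgeR).

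G519R was set against iKO to ask whether the mutant and the deletion differed. By edgeR 0 members were called, against 0.00557% of all genes called lower, 0 members and 4.30% of all genes (772) had an unadjusted p under 0.05, and DESeq2 called 0 members and 3 genes lower and 1 higher. Without overlap there were 0 members, 1.02% of all genes lower and 0.830% higher. The median log2 fold change of the members was -0.10, that of mt-Co1 was -0.22 (SE 0.21) and that of mt-Cytb was -0.10 (SE 0.19).

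Per gene length, the mRNAs wholly inside the copied stretch had the lowest levels among the mRNAs. In control mean FPKM, mt-Co1 was at 26181 ± 5901, mt-Nd1 at 17275, mt-Cytb at 11591 and mt-Nd2 at 7712. mt-Nd4 was at 4483, mt-Nd6 at 3798 and mt-Nd5 at 3363, whereas mt-Co2 was at 1183, mt-Atp6 at 503, mt-Co3 at 370, mt-Nd4l at 146, mt-Nd3 at 141 and mt-Atp8 at 13.8. The share of windows of 100 bases that had an exact copy in an annotated nuclear transcript was 99.5% for mt-Co2 and mt-Atp6, 99.9% for mt-Co3, 97.6% for mt-Nd3 and 98.5% for mt-Nd4l. It was 60.8% for mt-Nd4, 30.8% for mt-Co1, 3.19% for mt-Nd2 and 0% for mt-Nd1, mt-Nd5, mt-Nd6 and mt-Cytb. mt-Atp8 also had 0%, since no nuclear gene is annotated over it although it lies within the copied stretch. How the authors treated reads with several places was not given in the sources used here, and its part in these levels was not tested.

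**Figure D4:**
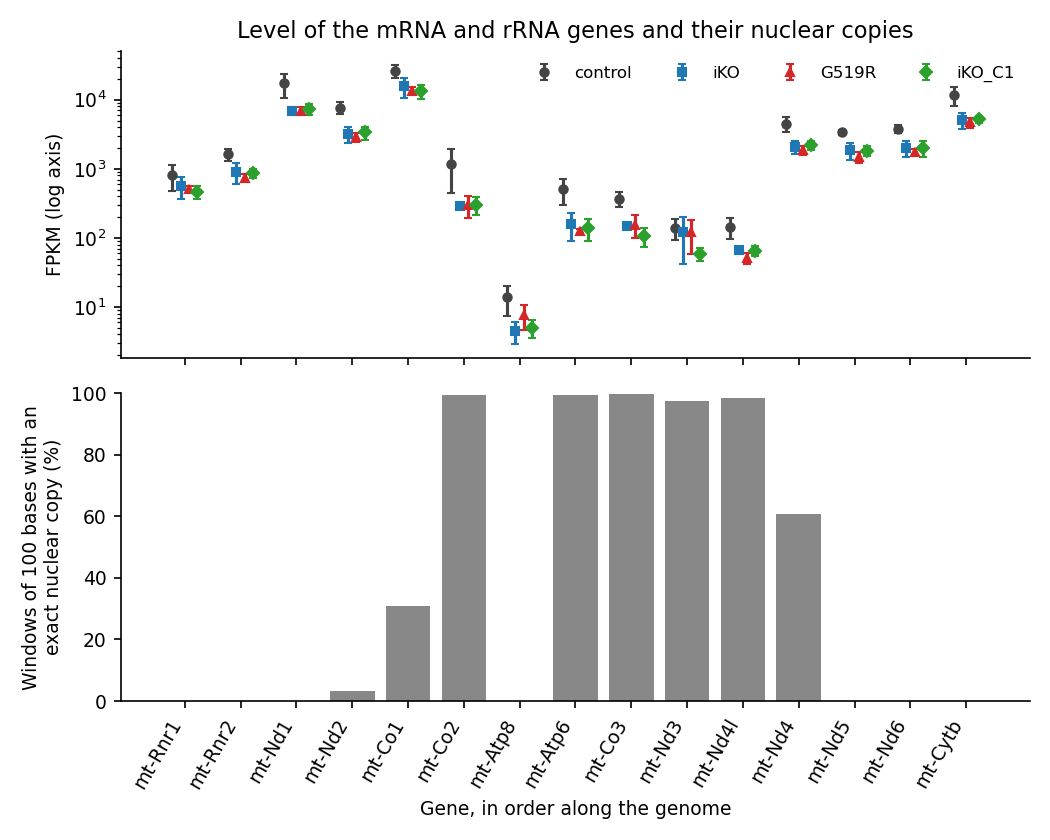
Upper panel, mean FPKM (log axis, bars SD, n = 4) of the 13 mRNA and 2 rRNA genes in each group (iKO_C1, Compound-1-treated iKO); lower panel, percent of their windows of 100 bases with an exact copy in an annotated nuclear transcript. The 5 genes with over 97% of windows copied have control means of 141 to 1183 FPKM, and mt-Co1, with 30.8%, has 26181 FPKM.

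Counts were also found on the nuclear copies. Of the counts on a member and its copy together, the copy held 25.7 to 52.9% for mt-Co2 over the 16 libraries, 23.3 to 65.2% for mt-Atp6, 20.5 to 49.3% for mt-Co3, 4.95 to 37.0% for mt-Nd3 and 20.2 to 37.6% for mt-Nd4l, and it held 0.143 to 0.362% for mt-Co1. Of the 7 copies on chromosome 1, 5 were lower and 0 higher in iKO, 7 and 0 in G519R and 6 and 0 with Compound-1. Which place the shared reads came from cannot be told apart. With each copy's counts added to its member, an alternative chosen after seeing the data, the calls were again 19, 21 and 23, and mt-Co2 changed by -1.96 in iKO and -1.95 in G519R. The 5 mRNAs outside the stretch, mt-Nd1, mt-Nd2, mt-Nd5, mt-Nd6 and mt-Cytb, were all called lower in iKO, G519R and Compound-1-treated iKO, with medians of -1.22, -1.33 and -1.18. Less similar copies of mt-Nd2 (Gm13339, 96.7% identity over 510 bases) and mt-Nd5 (Gm4076, 95.2% over 954 bases) held at most 88 and 6 counts in any library. mt-Co1 and mt-Co2 also have such copies on chromosome 2 (Gm13340 and Gm13341). The counts of these less similar copies were not added to their members.

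The respiratory chain subunits from nuclear genes were lower too. Of 75 such genes 38 were lower and 0 higher in iKO, 28 and 0 in G519R and 40 and 0 with Compound-1, where 13.8, 13.7 and 13.7% of all genes were called lower and 13.5, 13.1 and 15.7% higher, with medians of -0.85, -0.70 and -0.88. For complex I, 20, 16 and 20 of 36 nuclear subunits were lower, beside 6, 6 and 7 of 7 mitochondrial ones. The counts were 4, 3 and 4 of 9 beside 1, 1 and 1 of 1 for complex III, 4, 2 and 5 of 11 beside 2, 3 and 3 of 3 for complex IV, and 9, 6 and 9 of 15 beside 2, 1 and 2 of 2 for complex V. Complex II, succinate dehydrogenase, has no mitochondrially encoded subunit, and 1, 1 and 2 of its 4 genes were lower, a count too small to read against that background. The difference between the nuclear and the mitochondrial subunits was not tested.

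The most abundant nuclear subunits of complexes II, III, IV and V did not pass in either model. Their log2 fold changes in iKO and G519R were -0.18 and -0.08 for Sdha (complex II), 0.46 and 0.35 for Uqcrc1 (complex III), -0.43 and -0.39 for Cox4i1 (complex IV) and -0.27 and -0.19 for Atp5b (complex V). The number of nuclear subunits called turned on control 1, without which it was 69 in iKO, 67 in G519R and 67 with Compound-1. Without any 1 other library it was 20 to 29 in iKO, 7 to 21 in G519R and 17 to 42 with Compound-1, the lowest values being without control 3, control 4 or iKO 2 in iKO, without control 3 or G519R 3 in G519R and without control 4 with Compound-1. Calls over all genes moved too. In G519R, 3902 of 17647 genes were lower without control 1, 1431 of 17631 without control 3 and 1575 of 17449 without G519R 3. With all libraries 2437 of 17829 were lower. The 7 of 75 nuclear subunits called without control 3 or G519R 3 were thus near the share of all genes.

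**Figure D5:**
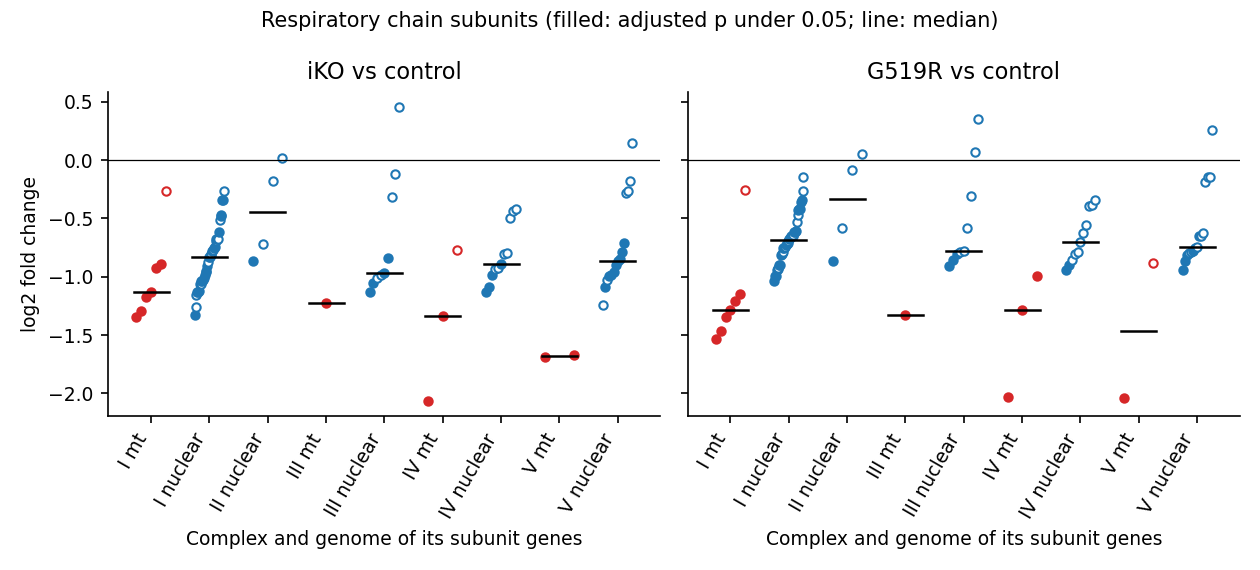
Log2 fold change against control (y axis) of respiratory chain subunit genes by complex and by genome (x axis, red mitochondrial, blue nuclear), for iKO (left) and G519R (right), filled where edgeR's adjusted p was under 0.05, with lines at medians. For complex I the median is -1.13 for mitochondrial and -0.83 for nuclear subunits in iKO, and -1.28 and -0.69 in G519R.

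A machinery list of 45 nuclear genes held genes that copy, transcribe, process or stabilise the mitochondrial genome and its RNA. It also held the nuclear transcriptional regulators Ppargc1a, Ppargc1b, Nrf1, Gabpa and Esrra. Of the 45 genes, 19 were lower and 1 higher in iKO, 19 and 2 in G519R and 14 and 2 with Compound-1 (all genes, 13.8 and 13.5%, 13.7 and 13.1%, and 13.7 and 15.7%), with medians of -0.45, -0.43 and -0.36. The 1 higher in iKO was Ppargc1b. Tfam, which packages mitochondrial DNA and starts its transcription, was at 124 ± 12.8 CPM in control, 64.8 ± 9.11 CPM in iKO and 73.7 ± 9.85 CPM in G519R (SD, n = 4). The fitted log2 change was -0.93 (SE 0.14, adjusted p = 0.00207 by edgeR) in iKO and -0.75 (SE 0.13, adjusted p = 0.00402 by edgeR) in G519R. Polrmt, the mitochondrial RNA polymerase, had 0.35 (SE 0.25, adjusted p = 0.328 by edgeR) and 0.42 (SE 0.23, adjusted p = 0.199 by edgeR), and Lrpprc, which stabilises mitochondrial mRNAs, had -0.21 (SE 0.22, adjusted p = 0.514 by edgeR) and -0.22 (SE 0.20, adjusted p = 0.443 by edgeR).

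The machinery genes with the largest falls by the mean of both models, Trmt10c and Hsd17b10, code for subunits of mitochondrial RNase P, which cuts the 5' ends of mitochondrial tRNAs. Trmt10c fell by 1.19 in iKO and by 1.05 in G519R on the log2 scale, and Hsd17b10 fell by 1.07 and by 0.82. Prorp, the nuclease subunit, was named after its values were seen and fell by 0.77 and by 0.69 (edgeR adjusted p = 0.0262 and 0.0121). Elac2, which cuts the 3' ends and was also named after its values were seen, had 0.34 and 0.27 (edgeR adjusted p = 0.361 and 0.418). Mterf3, which limits mitochondrial transcription, fell by 0.76 and by 0.97, and Ppargc1b, a coactivator of mitochondrial biogenesis, rose by 0.65 and 0.78 (edgeR adjusted p = 0.0446 and 0.00652). Without control 1 the list had 27 calls in iKO and 32 in G519R, and without control 4 or Compound-1-treated iKO 4 it had 10 and 9 in that comparison, where 16 were called with all 8 libraries. Over all genes, 3707 were lower and 3767 higher in iKO without control 1, and 3902 and 4244 in G519R. With Compound-1, 1280 were lower and 1730 higher without control 4, and 1206 and 1814 without Compound-1-treated iKO 4.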

How the data were processed

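Polyadenylated RNA of 16 enteroid cultures was sequenced. According to the methods and the submitters' processing notes, paired-end reads were aligned by the authors with STAR 2.5 to GRCm38/mm10 and counted per gene with HTSeq 0.6.1, and TopHat and DESeq2 are also named. The deposited counts are whole reads per gene, not normalized, and the deposited FPKM were made by the authors from these counts and gene length. Strand and multiple-position settings were not given in the sources used here.

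Groups came from the sample labels. The count tests used edgeR 4.0.16 under R 4.3.3 (TMM, genes with 10 or more counts in 2 or more of 8 libraries, quasi-likelihood F test, Benjamini-Hochberg over all tested genes, threshold 0.05). CPM were scaled to the total count of the library multiplied by its TMM factor. A count of 0 had a limit of 3 counts, which covers counting error only. Shares and ratios were compared by two-sided exact permutation tests in SciPy 1.17.1. Alternatives were DESeq2 1.42.0, its size factors, mitochondrial genes left out of library sizes, no filter, 1 fit of all 4 groups, the replicate number as a block, removal of the length trend, limma 3.58.1 on log2 values of FPKM with a pseudocount of 1 or 0.1, shares from FPKM or of protein-coding counts, and each library left out. The scripts were tested on simulated data. Nuclear copies were found with BLAST+ 2.17.0 at 95% identity or more over at least 200 bases, and the coordinates of all 37 members equal those of GENCODE M21.

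All mRNA and rRNA genes were named, as were tRNA genes that passed in both models or were among the 2 most abundant. Machinery genes were named by the mean of both models' log2 fold changes (up to 3 in each direction), and 1 gene per nuclear complex by level, of which the one for complex I is not reported here. The members and gene lists were chosen with earlier results of these data known.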

Additional observations from a re-analysis of the deposited data

Results flagged for a closer look

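Of 132 groups of 4 values examined, 9 held a library far from the other 3, where chance gives about 1 in 20. Control 1 was low in mt-Atp8 (0.847 CPM, others 3.43 to 3.89) and in mt-Nd3 (23.8 CPM, others 57.3 to 62.4). Control 1 was high in the log2 ratio of mt-Nd6 to the plus-strand mRNAs (-4.68, others -5.84 to -5.73) and in that of mt-Rnr2 to mt-Rnr1 (2.53, others 1.56 to 1.69). Control 2 was low in mt-Tt (2.33 CPM, others 3.11 to 3.26). G519R 4 was high in mt-Ty (6.64 CPM, others 3.31 to 3.54), and G519R 1 was low in mt-Nd6 (753 CPM, others 957 to 988). The first Compound-1-treated iKO culture was low in mt-Atp8 (0.603 CPM, others 1.15 to 1.19) and in the tRNA share of mitochondrial counts (0.209%, others 0.303 to 0.313%).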

How the results depend on the processing

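The median log2 fold change of the members against control stayed below 0 in the alternatives with all libraries, at -0.96 to -0.60 in iKO, -1.15 to -0.81 in G519R and -1.25 to -0.85 with Compound-1. With the length trend removed 9 members were called in iKO, mt-Nd3 turned to 0.27 in iKO and 0.24 in G519R, and mt-Tg to 0.25 and 0.30. The limma fits called 7 members at either pseudocount in iKO, 11 at either in G519R, and 14 and 12 with Compound-1 (pseudocounts 1 and 0.1), and turned mt-Tg in G519R to 0.17 and 0.19. From FPKM, the tRNA share of the mitochondrial total differed by 1.31 (iKO against control), 1.06 (G519R), -0.0826 (Compound-1), -1.39 (Compound-1 against iKO) and -0.246 percentage points (G519R against iKO), and the mitochondrial share by -6.21 in G519R and -5.70 with Compound-1. The causes were not tested.

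The samples were treated as unpaired, since no comparison met the condition that every same-numbered pair correlate above 0.1 (-0.19 to 0.09 for iKO against control). Missing this condition does not show that the replicate numbers share nothing. G519R against iKO came nearest, at 0.12, 0.06, 0.41 and 0.52 for numbers 1 to 4, where samples 1, 3 and 4 correlated best with their own number and sample 2 did not. With the replicate number as a block, 20, 21 and 23 members were called in iKO, G519R and Compound-1-treated iKO against control, nuclear subunits fell to 25 calls in iKO and 16 in G519R, and mt-Tg in G519R turned to 0.0797.

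Leaving out 1 library at a time, the calls against control ranged over 11 to 24, 16 to 26 and 15 to 31 for the members in iKO, G519R and Compound-1-treated iKO against control, 20 to 69, 7 to 67 and 17 to 67 for nuclear subunits and 14 to 27, 16 to 32 and 9 to 20 for the machinery, and the other 2 comparisons kept 0. Over all genes, the number called lower against control ranged over 1405 to 3707, 1410 to 3902 and 1206 to 3403 in the same order. In the order iKO, G519R and Compound-1-treated iKO against control, Compound-1-treated iKO against iKO and G519R against iKO, the members' median ranged over -1.12 to -0.77, -1.24 to -1.03, -1.48 to -1.10, -0.38 to -0.12 and -0.26 to 0.0638. The mitochondrial share difference ranged over -4.42 to -3.09, -4.98 to -3.65, -4.84 to -3.51, -0.838 to 0.0486 and -0.917 to -0.0918 percentage points, the rRNA share over 0.279 to 0.649, 0.181 to 0.416, 0.223 to 0.686, -0.229 to 0.234 and -0.338 to 0.0312, and the tRNA share over 0.0295 to 0.0928, 0.0264 to 0.0754, -0.0195 to 0.0151, -0.103 to -0.0394 and -0.0415 to 0.0279. The log2 ratio differences ranged over -0.075 to 0.31, -0.11 to 0.28, -0.0304 to 0.36, -0.00948 to 0.13 and -0.0884 to 0.0468 for mt-Nd6, -0.63 to -0.21, -0.68 to -0.35, -0.31 to 0.0121, 0.10 to 0.42 and -0.26 to 0.0583 for mt-Rnr2 to mt-Rnr1, and -0.0488 to 0.15, -0.11 to 0.0596, -0.0864 to 0.13, -0.14 to 0.0755 and -0.15 to 0.00778 for mt-Cytb to mt-Nd1. Signs turned for mt-Tg against control (-0.80 to 0.00853 in iKO, -0.50 to 0.18 in G519R), and, against iKO, for mt-Co1 (-0.40 to 0.0124 with Compound-1, -0.33 to 0.0387 in G519R) and mt-Cytb (-0.0731 to 0.21 and -0.19 to 0.10).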
